A study of Mus musculus with 26 samples.

Results

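The 49 genes described here are interferon stimulated genes, that is, genes whose transcription is switched on by type I or type II interferon. They were taken as a list of gene symbols and not by a threshold on their values, and all 49 were found by symbol and Ensembl identifier among the 54375, 54863 and 57186 genes of the monocyte, small peritoneal macrophage and lung macrophage tables. They lay on 15 chromosomes and fell into 8 groups by role, namely transcription factors (Irf1, Irf7, Irf9 and Stat2), sensors of nucleic acids (Ifih1, Ddx58, Dhx58, Zbp1, Ifi204 and Ifi209), oligoadenylate synthetases and their relatives (Oas1a, Oas1g, Oas2, Oas3, Oasl1 and Oasl2), IFIT proteins (Ifit1, Ifit2, Ifit3 and Ifit3b), antiviral effectors (Mx1, Mx2, Rsad2, Cmpk2, Bst2 and Isg20), the ISG15 system (Isg15, Usp18 and Herc6), interferon inducible GTPases (Gbp2, Gbp3, Gbp5, Gbp7, Igtp, Irgm1, Iigp1, Tgtp1 and Ifi47) and 11 further genes (Ifi44, Ifi35, Ifi27l2a, Xaf1, Rtp4, Parp14, Trim30a, Slfn5, Slfn8, Phf11d and Lgals3bp). In SPMs and lung macrophages all 49 passed the filter on low counts, whereas in monocytes 48 did, Iigp1 being too low.

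The samples were RNA of cells sorted by FACS from naïve female WT and ACKR2-/- mice. ACKR2 is an atypical chemokine receptor that takes up inflammatory CC chemokines without signalling through G proteins. Of the 26 samples, 4 WT and 4 ACKR2-/- were bone marrow monocytes, 4 and 4 were small peritoneal macrophages (SPMs), and 5 and 5 were MHCII negative macrophages of the lung. The comparison of genotypes asked how the lack of ACKR2 changes the transcriptome of each cell type. WT mice were C57BL/6J animals bought from a supplier and ACKR2-/- mice were bred in the study's own facility, so that genotype and origin cannot be told apart. ACKR2 is missing from every cell of these mice and not from the sorted cells alone. Mice were 8 to 10 weeks old unless the study stated another age. Each monocyte or SPM sample pooled cells of 5 mice. For lung samples the sources used here do not give the number of mice. No sample had been given interferon, a virus or another agent.

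Interferons are secreted proteins that warn cells of infection. Type I interferon acts through IFNAR, JAK1 and TYK2 on a complex that holds STAT2 and IRF9 and binds the interferon stimulated response element (ISRE), whereas interferon gamma acts through its own receptor and the gamma activated sequence (GAS). Macrophages and monocytes also keep a low tonic level of these transcripts without infection, and many of the products are sensors of viral nucleic acids, enzymes that block viral replication, or GTPases that act on the vacuoles of intracellular microbes.

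The promoters of the genes were searched for the cores of both elements, since these are the sequences through which the genes are read out together. RefSeq windows on GRCm38.p6, from 250 bases before to 50 bases after the start of transcription, were found for 38 of the 49 genes. The ISRE core, GAAA and GAAA with any 2 bases (NN) between them, or TTTC, NN and TTTC on the other strand, lay in the window of 22 of these 38 genes (57.9%), compared with 1079 of 27025 genes overall (3.99%). The GAS core, TTCNNNGAA, which reads the same on both strands, lay in 10 of the 38 (26.3%), compared with 2582 of 27025 (9.55%). Both cores were found for 6 genes and neither for 12, namely Irf7, Irf9, Ifi209, Oasl1, Oasl2, Cmpk2, Herc6, Ifi47, Ifi44, Xaf1, Phf11d and Lgals3bp. Among the inducible GTPases, 7 of 8 windows held the ISRE core and 4 held the GAS core. A match describes the letters of the window and does not show that a factor binds there. Dhx58, Zbp1, Ifi204, Oas2, Mx1, Mx2, Usp18, Iigp1, Ifi27l2a, Rtp4 and Parp14 had no window.

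Each stretch below holds the 200 bases before the start, 5′ to 3′ in the direction of transcription, with the matches in capitals. Irf1 (chr11:53769814-53770013 on the plus strand) is shown as 1 of 4 genes with a GAS core and no ISRE core, the others being Ifit2, Isg20 and Ifi35. Isg15 (chr4:156200819-156201018 on the minus strand) is shown for its overlapping ISRE cores. Ifit3 (chr19:34583329-34583528 on the plus strand) and Ifit3b (chr19:34607757-34607956 on the plus strand) are shown because they are neighbouring near copies whose promoters share both matches. Oas1a (chr5:120907526-120907725 on the minus strand), Igtp (chr11:58199356-58199555 on the plus strand) and Gbp7 (chr3:142530136-142530335 on the plus strand) held both kinds of core.
Irf1: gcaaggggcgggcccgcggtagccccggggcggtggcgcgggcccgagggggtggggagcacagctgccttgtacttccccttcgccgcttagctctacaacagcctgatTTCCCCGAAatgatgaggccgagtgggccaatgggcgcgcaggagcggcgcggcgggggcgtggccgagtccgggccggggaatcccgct
Isg15: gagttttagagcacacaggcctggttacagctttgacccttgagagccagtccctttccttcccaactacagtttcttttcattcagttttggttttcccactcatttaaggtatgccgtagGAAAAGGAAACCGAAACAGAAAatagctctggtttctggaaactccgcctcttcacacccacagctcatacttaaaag
Ifit3: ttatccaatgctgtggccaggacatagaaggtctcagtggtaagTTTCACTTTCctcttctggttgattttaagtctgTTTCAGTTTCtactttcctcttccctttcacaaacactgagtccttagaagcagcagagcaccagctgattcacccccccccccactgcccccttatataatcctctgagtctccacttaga
Ifit3b: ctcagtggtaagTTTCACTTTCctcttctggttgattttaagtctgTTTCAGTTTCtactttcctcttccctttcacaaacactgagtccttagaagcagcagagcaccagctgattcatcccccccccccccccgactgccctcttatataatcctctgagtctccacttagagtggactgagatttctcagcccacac
Oas1a: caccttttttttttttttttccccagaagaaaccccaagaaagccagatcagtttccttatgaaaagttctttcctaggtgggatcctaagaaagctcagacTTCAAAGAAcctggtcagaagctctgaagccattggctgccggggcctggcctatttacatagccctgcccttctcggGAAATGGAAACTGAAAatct
Igtp: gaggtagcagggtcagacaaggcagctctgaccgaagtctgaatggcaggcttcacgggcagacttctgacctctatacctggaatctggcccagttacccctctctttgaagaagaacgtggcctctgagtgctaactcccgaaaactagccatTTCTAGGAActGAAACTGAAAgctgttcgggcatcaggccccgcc
Gbp7: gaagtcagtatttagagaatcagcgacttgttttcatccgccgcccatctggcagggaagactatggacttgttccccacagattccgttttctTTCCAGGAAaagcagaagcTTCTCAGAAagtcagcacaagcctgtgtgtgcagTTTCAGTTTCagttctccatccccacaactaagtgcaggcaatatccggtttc
The GAS core of Irf1 began 90 bases before the start. Isg15 held 3 overlapping ISRE cores, beginning 78, 72 and 66 bases before it. In Igtp the GAS core (45 bases before) and the ISRE core (34 bases before) were nearly adjacent. In Gbp7 a pair of GAS cores (106 and 87 bases before) preceded the ISRE core (53 bases before).

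Total counts on genes were 15450670 to 19218213 per monocyte sample, 12781144 to 35400034 per SPM sample and 19950019 to 29770252 per lung sample. In SPMs, Ackr2 itself had 5 to 9 reads in each WT sample and 0 in each ACKR2-/- sample. In monocytes it had 0 to 2 reads in either genotype, so that it checks nothing there. In lung macrophages Ackr2 had 469, 436, 150, 372 and 0 reads in WT samples 1 to 5, and 50, 38, 25, 7 and 7 in ACKR2-/- samples 1 to 5. The library labelled WT 5 thus went against its label, although it also had fewer reads than every ACKR2-/- sample, and the cause was not tested. Markers of the labelled cell type were present in every sample, with summed levels of 28894 to 73022 CPM for 10 monocyte markers in monocytes, 110344 to 189413 CPM for 9 SPM markers in SPMs and 5042 to 18294 CPM for 9 interstitial macrophage markers in the lung. Markers of other cells reached sums of similar size or larger, so these values do not show that a sample was pure. The 10 neutrophil markers summed to 20310 to 115483 CPM in monocyte samples, and the 10 monocyte markers to 17052 to 27911 CPM in lung samples. Epithelial markers in the lung summed to 6157 to 19052 CPM except in the library labelled WT 5 (421 CPM) and ACKR2-/- sample 4 (253 CPM). The same 2 libraries were lowest in endothelial (177 and 156.5 CPM) and fibroblast (87.5 and 62 CPM) markers.

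In unstimulated WT cells the interferon stimulated genes were expressed at levels that spanned several orders of magnitude, and each cell type had its own profile. Levels are given as FPKM, that is, counts scaled by library size and by the length of the gene model, in the order of the replicate numbers. They were scaled by TMM, and the effect of another scaling is given with the calls. By WT mean, 20 of the 49 genes were highest in monocytes, 20 in SPMs and 9 in lung macrophages. The median gene stood at 8.38 FPKM in monocytes, 10.2 FPKM in SPMs and 7.12 FPKM in lung macrophages. Each cell type came from its own table, so cell type and any difference between the tables in how they were made cannot be told apart, and in these bulk samples fewer cells of a type and less RNA per cell cannot be told apart either.

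Ifi27l2a, which encodes a small membrane protein, had the highest level of all, at 1631, 1370, 1874 and 1829 FPKM in monocytes, 5432, 6475, 4281 and 5510 FPKM in SPMs, and 389, 284, 477, 283 and 358 FPKM in lung macrophages. With TMM every SPM sample was above every monocyte sample, and every monocyte sample above every lung sample. The log2 fold change of SPMs over monocytes was 1.69 with TMM and 0.54 with library totals alone, where it was not called. Bst2, which encodes tetherin and holds budding virions at the cell surface, had 125, 113, 144 and 146 FPKM in monocytes, 161, 344, 238 and 346 FPKM in SPMs, and 123, 93.5, 142, 63.1 and 84.5 FPKM in lung macrophages. With TMM its SPM samples were all above the monocyte samples, and the lung samples overlapped with the monocyte samples. The log2 fold change of SPMs over monocytes was 1.05 with TMM and -0.17 with library totals alone, so this order depends on the scaling. Among the transcription factors the highest was Irf1, an activator downstream of both interferon types, at 19.8, 15.4, 19.2 and 16.3 FPKM in monocytes, 12.5, 25.4, 16.1 and 37.8 FPKM in SPMs, and 133, 119, 47.9, 107 and 96.7 FPKM in lung macrophages. All 5 lung samples were above all other samples. Oas1a, which makes the second messenger that activates RNase L, had 66.3, 60.4, 70.5 and 78.8 FPKM in monocytes, 35.1, 79.0, 108 and 108 FPKM in SPMs, and 30.1, 23.1, 35.4, 22.8 and 33.8 FPKM in lung macrophages. The lung samples were lowest as a group, although SPM sample 1 lay within their range. Isg15, the ubiquitin-like modifier, had 48.5, 37.7, 47.0 and 48.9 FPKM in monocytes, 19.1, 40.9, 39.5 and 55.1 FPKM in SPMs, and 29.2, 16.7, 32.7, 18.4 and 20.9 FPKM in lung macrophages. All lung samples were below all monocyte samples, and the SPM samples overlapped with both. Zbp1, a sensor of Z-form nucleic acids that can start cell death, had 20.9, 17.6, 22.6 and 23.4 FPKM in monocytes, 19.6, 50.6, 46.6 and 64.6 FPKM in SPMs, and 21.6, 18.1, 9.53, 22.9 and 35.6 FPKM in lung macrophages. With TMM, SPM samples 2 to 4 were above all other samples, and SPM sample 1 was not. The log2 fold change of Zbp1 in SPMs over monocytes was 1.10 with TMM and -0.14 with library totals alone.

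The GTPase Ifi47 and the IFIT genes had opposite profiles between monocytes and SPMs. Ifi47, which belongs to the immunity-related GTPases and was the highest member of its group, was at 0.708, 0.614, 0.544 and 0.770 FPKM in monocytes, 22.1, 51.3, 52.2 and 83.5 FPKM in SPMs, and 25.7, 16.4, 12.4, 14.4 and 11.2 FPKM in lung macrophages. It was below 1 FPKM in every monocyte sample, and no macrophage sample overlapped with the monocyte samples. Ifit3, of the IFIT family of proteins that act against viral RNA, was at 39.8, 19.3, 33.0 and 36.7 FPKM in monocytes, 3.004, 6.63, 5.52 and 8.07 FPKM in SPMs, and 18.5, 12.8, 14.3, 11.8 and 5.95 FPKM in lung macrophages. Here the monocyte samples were all above the others, and the SPM samples were lowest except for lung sample 5, which fell among them. Ifit3b, its near copy, was at 6.63, 3.38, 5.86 and 6.02 FPKM in monocytes, 0.347, 0.556, 0.855 and 0.824 FPKM in SPMs, and 3.21, 2.72, 2.45, 1.69 and 0.303 FPKM in lung macrophages, and Ifit2, which restrains viral translation, at 5.95, 3.49, 4.63 and 4.24 FPKM in monocytes, 0.569, 0.519, 0.198 and 1.01 FPKM in SPMs, and 0.724, 0.700, 1.89, 0.438 and 0.545 FPKM in lung macrophages. In both genes every monocyte sample was above every sample of the macrophages. Ifit3 and Ifit3b are near identical in sequence, so that the split of reads between them is uncertain. Cmpk2, a mitochondrial nucleotide kinase encoded next to Rsad2, was at 12.7, 12.8, 12.6 and 12.97 FPKM in monocytes, 1.46, 1.09, 1.27 and 2.46 FPKM in SPMs, and 3.39, 2.40, 1.69, 3.68 and 3.88 FPKM in lung macrophages. Its monocyte samples were nearly equal and well above any macrophage sample.

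Further genes were high in SPMs or in lung macrophages. Slfn8, of the Schlafen family, was at 0.403, 0.299, 0.127 and 0.444 FPKM in monocytes, 7.35, 4.26, 3.69 and 4.98 FPKM in SPMs, and 2.27, 2.06, 3.40, 2.70 and 4.64 FPKM in lung macrophages. All its macrophage samples were above all its monocyte samples. Rtp4, which controls receptor transport and restricts viruses, was at 35.9, 24.6, 38.1 and 41.0 FPKM in monocytes, 66.2, 148, 276 and 233 FPKM in SPMs, and 25.3, 26.9, 24.3, 27.3 and 29.5 FPKM in lung macrophages, and Gbp3, a guanylate-binding protein, at 16.7, 11.3, 14.2 and 13.04 FPKM in monocytes, 25.4, 44.4, 40.0 and 51.8 FPKM in SPMs, and 9.55, 5.37, 16.7, 6.85 and 4.70 FPKM in lung macrophages. With TMM, every SPM sample was above every other sample for Rtp4 and Gbp3. The log2 fold change of Gbp3 in SPMs over monocytes was 1.55 with TMM and 0.33 with library totals alone, where it was not called. Tgtp1, a GTPase with a near copy (Tgtp2) that may share its reads, was at 0.749, 0.352, 0.366 and 0.456 FPKM in monocytes, 0.770, 2.14, 6.89 and 3.75 FPKM in SPMs, and 2.88, 1.58, 0.685, 0.903 and 0.933 FPKM in lung macrophages. It was low throughout, and its SPM and lung samples overlapped. Iigp1, a GTPase that coats parasite vacuoles, was at 0.721, 0.110, 0.0834 and 0.0993 FPKM in monocytes, 0.198, 0.415, 0.448 and 2.51 FPKM in SPMs, and 18.2, 15.7, 2.99, 10.4 and 4.35 FPKM in lung macrophages, and Irf7, which amplifies type I interferon production, at 41.6, 28.7, 45.6 and 35.1 FPKM in monocytes, 5.70, 9.83, 10.5 and 14.8 FPKM in SPMs, and 46.8, 56.3, 16.7, 61.1 and 73.7 FPKM in lung macrophages. All lung samples were above all SPM samples for Iigp1 and for Irf7.

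**Figure D1:**
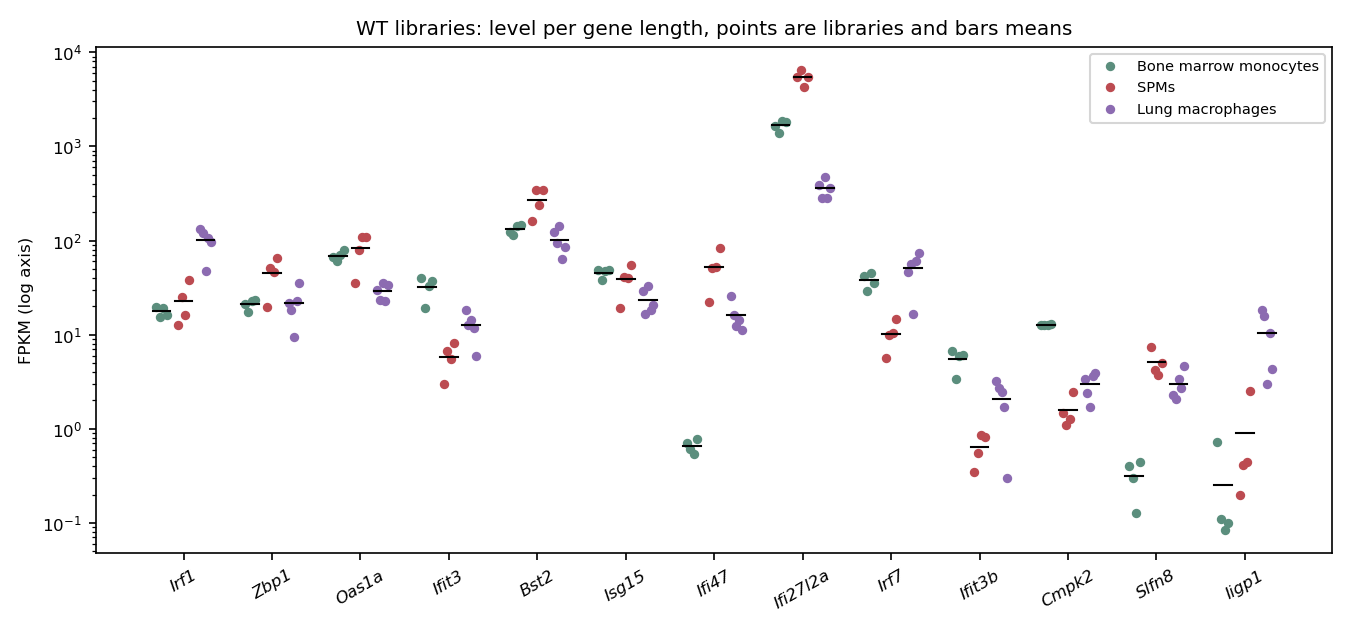
Levels of 13 interferon stimulated genes in WT libraries, as FPKM on a log axis, with a point for each library (4 monocyte, 4 SPM and 5 lung) and a bar at the mean of each cell type. Ifi27l2a stands above all others in SPMs (mean 5424 FPKM), Ifit3, Ifit3b and Cmpk2 are highest in monocytes, and Ifi47 and Slfn8 are far lower in monocytes than in both macrophage types.

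For WT cell types, a call needed an adjusted p below 0.05 and an absolute log2 fold change above 0.5 (edgeR's quasi-likelihood test and Benjamini-Hochberg adjustment, over 17792 genes in a single fit of all samples). In SPMs 14 of the 49 genes were higher and 15 lower than in monocytes, and 41.9% of all tested genes were called in that comparison (21.8% higher, 20.1% lower). In lung macrophages 5 were higher and 17 lower than in monocytes, where 63.8% of all genes were called (39.5% higher, 24.4% lower). Compared with SPMs, 7 were higher and 17 lower in lung macrophages, where 62.3% of all genes were called (39.1% higher, 23.2% lower). These comparisons share their WT samples and are not independent of each other. They also depend on the scaling, because library totals alone in place of TMM moved the median of all genes in SPMs against monocytes from 0 to -0.96 and in lung macrophages against SPMs from 0.41 to 1.62 on the log2 scale. With library totals the counts became 4 higher and 28 lower, 6 higher and 17 lower, and 26 higher and 3 lower, respectively. The split of the genes between SPMs and lung macrophages thus turned around with the scaling, and only calls made in the same direction under both are named as called, unless stated.

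Called under both scalings in SPMs were, as higher than in monocytes, Ifi47, Rtp4, Slfn8 and Phf11d. The 15 lower genes were the same under both, namely Irf7, Irf9, Dhx58, Ifi204, Ifi209, Oas3, Oasl1, Ifit2, Ifit3, Ifit3b, Mx1, Mx2, Rsad2, Cmpk2 and Usp18. They include 3 of the 4 IFIT genes and 4 of the 6 antiviral effectors. The log2 fold changes were 6.30 (SE 0.57) for Ifi47 and 3.99 (SE 0.44) for Slfn8. They were -3.10 (SE 0.66) for Ifit3b, -3.01 (SE 0.37) for Cmpk2 and -2.94 (SE 0.70) for Ifit2. Tgtp1 was called higher with TMM only, at 2.80 (SE 0.77), and stood at 1.53 with library totals. Of the GTPases 6 were called higher in SPMs with TMM and 1 with library totals, and none was called lower under either.

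All 22 calls between monocytes and lung macrophages were made under both scalings. Higher in lung macrophages were Irf1, Gbp2, Iigp1, Ifi47 and Slfn8, with log2 fold changes of 5.37 (SE 1.17) for Iigp1, 4.60 (SE 0.52) for Ifi47 and 3.24 (SE 0.42) for Slfn8. Lower were 17 genes that include 3 sensors (Dhx58, Ifi204 and Ifi209), 3 oligoadenylate synthetase genes (Oas1a, Oasl1 and Oasl2) and 3 IFIT genes. The largest differences among these were those of Ifit2, at -2.41 (SE 0.62), Ifi27l2a, at -2.23 (SE 0.31), and Cmpk2, at -2.09 (SE 0.32). Between SPMs and lung macrophages 10 calls were made under both scalings. Irf1, Irf7, Irf9, Ifit3b, Mx2, Cmpk2 and Iigp1 were higher in lung macrophages, by 3.47 (SE 1.06) on the log2 scale for Iigp1, 2.32 (SE 0.55) for Irf7 and 2.13 (SE 0.38) for Irf1. Ifi27l2a, Rtp4 and Gbp3 were lower, at -3.92 (SE 0.33), -2.76 (SE 0.35) and -2.23 (SE 0.34). Transcription factors made up 3 of the 7 genes that were higher in lung macrophages than in SPMs.

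In SPMs, 45 of the 49 interferon stimulated genes had a higher estimate in ACKR2-/- than in WT cells and 4 a lower one, but no gene passed the test, and the difference was carried by 2 of the 4 ACKR2-/- samples. The median log2 fold change of the 49 genes was 0.71, compared with -0.05 over all 12997 genes tested. The smallest adjusted p of a member was 0.788 (edgeR's quasi-likelihood test and Benjamini-Hochberg adjustment), and 0.0462% of all genes were called. DESeq2 called 0 of the 49 as well, and 0.120% of all genes. At an unadjusted p below 0.05, 16 of the 49 were higher and 0 lower, compared with 2.93% of all genes higher and 2.52% lower. In none of the 49 were the genotypes free of overlap, against 3.40% of all genes.

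Values below are CPM, counts scaled by TMM library size without gene length, in the order of the replicate numbers. Iigp1 had 0.383, 0.723, 0.792 and 4.21 CPM in WT and 54.7, 0.880, 3.92 and 84.6 CPM in ACKR2-/- samples. ACKR2-/- samples 1 and 4 were far above all others, and ACKR2-/- sample 2 lay within the WT range. Its log2 fold change was 4.49 (SE 1.27, p = 0.00482 in edgeR's quasi-likelihood test, adjusted p = 0.788), and an exact permutation test (two-sided) gave p = 0.143. Irf7 had 13.4, 20.7, 22.4 and 30.1 CPM in WT and 84.0, 19.3, 24.3 and 258 CPM in ACKR2-/- samples. Again samples 1 and 4 of the ACKR2-/- group stood above the WT range while samples 2 and 3 lay within it, and the log2 fold change was 2.15 (SE 0.71). Igtp, a GTPase that acts on vacuoles together with Irgm1, had 17.6, 24.8, 30.7 and 47.3 CPM in WT and 116, 23.4, 47.6 and 131 CPM in ACKR2-/- samples. Its log2 fold change was 1.40 (SE 0.50), with ACKR2-/- sample 3 level with the highest WT sample. Ifit2 had 1.39, 1.14, 0.440 and 2.14 CPM in WT and 6.94, 0.587, 1.37 and 21.2 CPM in ACKR2-/- samples, and Ifit3 had 3.26, 6.45, 5.45 and 7.58 CPM in WT and 18.1, 3.30, 8.40 and 41.8 CPM in ACKR2-/- samples. For both, ACKR2-/- sample 2 lay within the WT range, and the log2 fold changes were 2.51 (SE 0.93) and 1.65 (SE 0.63). By exact permutation tests (two-sided) the p-values were 0.200 for Irf7, 0.171 for Igtp, 0.286 for Ifit2 and 0.200 for Ifit3, where 0.029 is the smallest that 4 samples against 4 can give.

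The 16 genes at an unadjusted p below 0.05 were spread over most roles. They comprised 7 of the 9 GTPases (Iigp1, Igtp, Ifi47, Gbp5, Gbp2, Tgtp1 and Gbp3), 3 of the 4 IFIT genes (Ifit1, Ifit2 and Ifit3), both Irf7 and Irf1, 2 oligoadenylate synthetase relatives (Oasl1 and Oasl2), the sensor Zbp1 and Ifi44. The median log2 fold change was highest for the IFIT group (1.40, range 1.04 to 2.51) and for the GTPases (1.18, range 0.44 to 4.49). It was 0.80 for the oligoadenylate synthetases, 0.72 for the ISG15 system, 0.62 for the transcription factors, 0.56 for the antiviral effectors, 0.48 for the sensors and 0.33 for the remaining 11 genes. The highest gene of each group by level is given next. Ifi47 had 33.9, 70.7, 73.0 and 111 CPM in WT and 235, 57.8, 116 and 245 CPM in ACKR2-/- samples. Irf1 had 30.9, 56.2, 36.1 and 81.0 CPM in WT and 132, 38.3, 77.1 and 168 CPM in ACKR2-/- samples, and Zbp1 had 42.9, 99.6, 93.0 and 123 CPM in WT and 269, 87.6, 82.8 and 279 CPM in ACKR2-/- samples. In all 3 genes ACKR2-/- samples 1 and 4 were above every WT sample, and sample 2 was not. Isg15 had 8.96, 17.2, 16.9 and 22.4 CPM in WT and 36.6, 14.1, 17.1 and 56.2 CPM in ACKR2-/- samples. Bst2 had 90.6, 173, 122 and 168 CPM in WT and 217, 141, 105 and 308 CPM in ACKR2-/- samples, and Oas1a had 41.2, 83.1, 115 and 109.5 CPM in WT and 158, 79.7, 79.5 and 154 CPM in ACKR2-/- samples. Their log2 fold changes were 0.92 (SE 0.43), 0.48 (SE 0.34) and 0.43 (SE 0.35), and ACKR2-/- samples 2 and 3 lay within the WT range for each. Ifi27l2a, the most abundant transcript of all, had 1563, 1671, 1121 and 1373 CPM in WT and 1537, 1238, 859.8 and 2391 CPM in ACKR2-/- samples. Its genotypes overlapped, and the log2 fold change was 0.07 (SE 0.30).

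The 4 genes with a lower estimate were Parp14, Ifih1, Oas2 and Slfn5, and in each of them WT sample 1 was the highest sample of all. Parp14, an ADP-ribosyltransferase, had 39.2, 14.3, 16.5 and 14.8 CPM in WT and 20.1, 13.7, 15.2 and 24.5 CPM in ACKR2-/- samples. Ifih1, the RNA sensor MDA5, had 12.4, 4.08, 4.13 and 5.10 CPM in WT and 6.32, 4.22, 3.04 and 8.62 CPM in ACKR2-/- samples. The remaining WT samples of both genes lay within the ACKR2-/- range. Oas2 had 13.3, 4.03, 3.25 and 3.18 CPM in WT and 7.13, 4.84, 3.68 and 7.46 CPM in ACKR2-/- samples, and Slfn5 had 33.3, 11.2, 12.1 and 15 CPM in WT and 22.1, 12.0, 8.06 and 27.4 CPM in ACKR2-/- samples. The log2 fold changes were -0.21 (SE 0.35), -0.22 (SE 0.43), -0.05 (SE 0.47) and -0.04 (SE 0.44), and each was above 0 when WT sample 1 was left out (0.28, 0.32, 0.73 and 0.44).

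**Figure D2:**
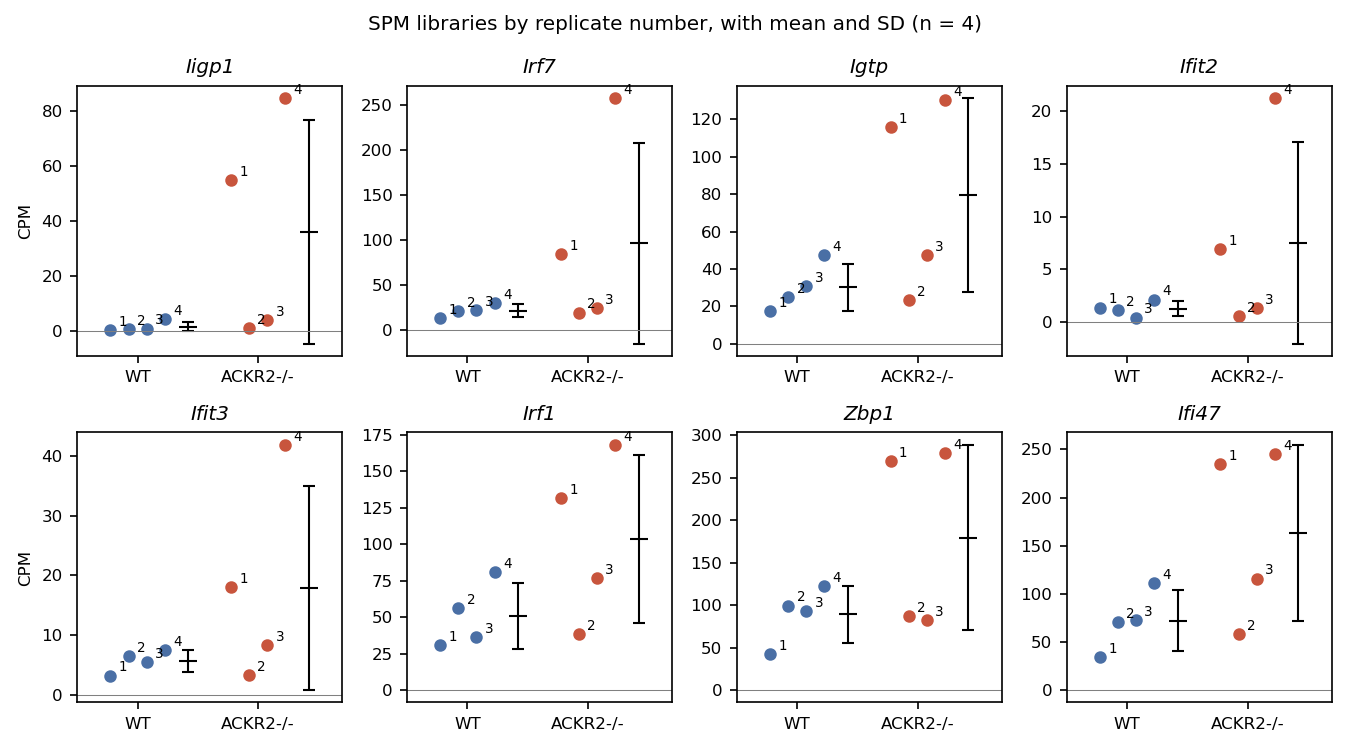
CPM (linear axes, a separate scale for each gene) of 8 interferon stimulated genes in SPMs, with 1 point per library, 4 WT and 4 ACKR2-/-, labelled by replicate number, and the mean with SD beside each genotype. ACKR2-/- libraries 1 and 4 stand above all WT libraries in each panel, whereas libraries 2 and 3 lie in or near the WT range.

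The split among the ACKR2-/- samples of SPMs ran through most of the list. Relative to the WT mean, the median log2 level of the 49 genes was 0.80, -0.21, 0.08 and 1.41 in ACKR2-/- samples 1 to 4, and -0.26, -0.04, -0.09 and 0.30 in WT samples 1 to 4. ACKR2-/- sample 1 was above every WT sample for 38 of the 49 genes and sample 4 for 41, compared with 14.6% and 16.3% of all genes. Samples 2 and 3 were so for 0 and 10 genes, compared with 10.6% and 17% of all genes. Sample 4 was the highest ACKR2-/- sample for 45 genes, and the share of all genes for which it was so is not reported here. Without samples 1 and 4, which leaves 2 ACKR2-/- samples, 18 genes had a higher and 31 a lower estimate, the median log2 fold change was -0.10, and 0 genes had an unadjusted p below 0.05 (edgeR's quasi-likelihood test). Ifit2 then stood at -0.40 and Iigp1 at 0.62. This alternative was chosen after the values had been seen. The samples left out were the highest for these genes, so the direction of the move was fixed by the choice.

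**Figure D3:**
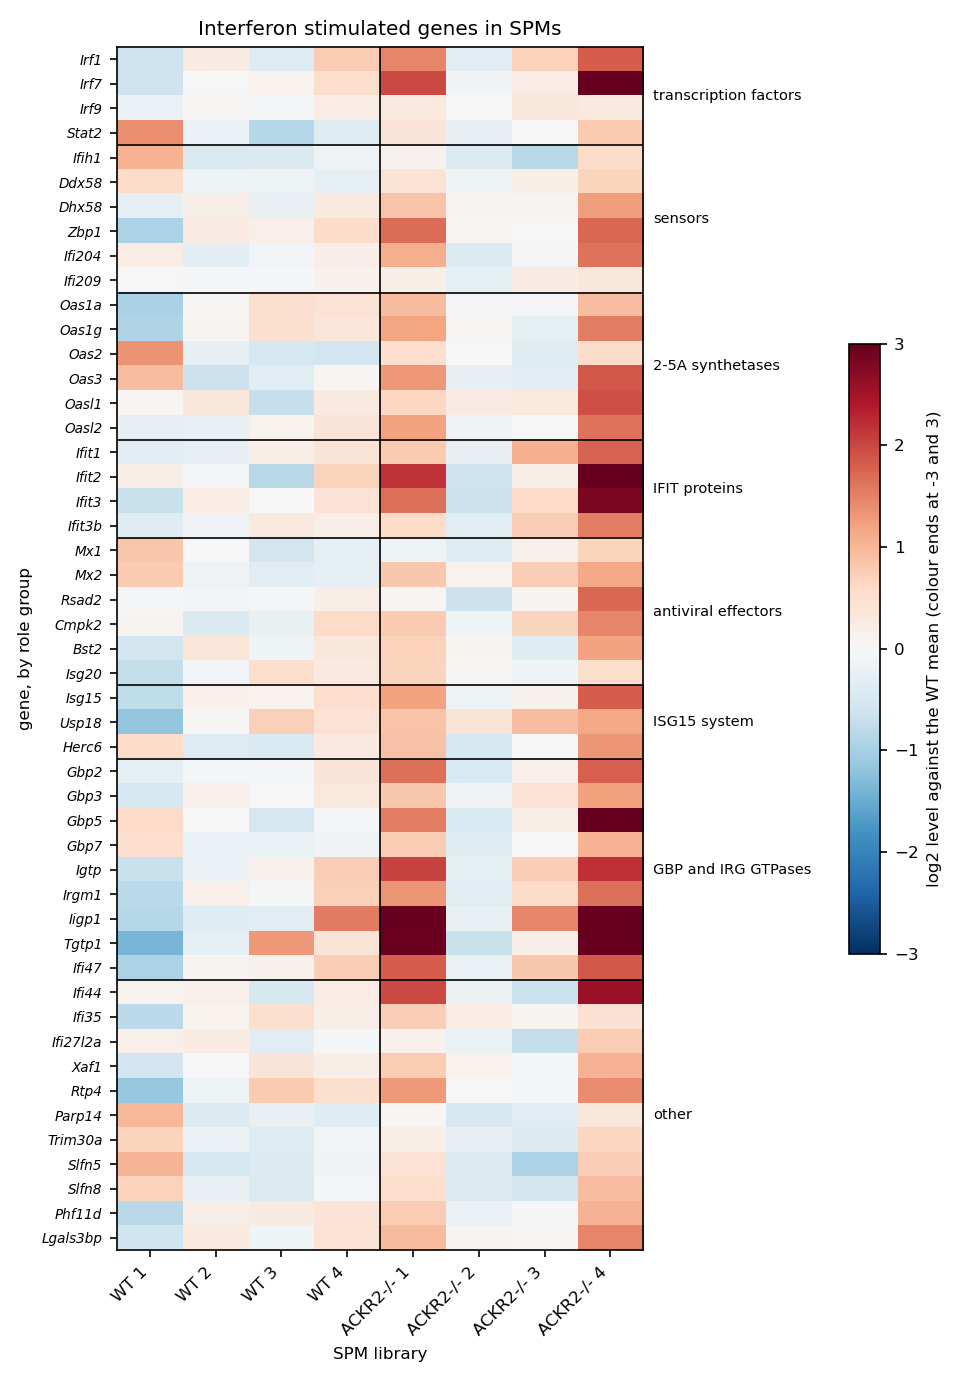
Log2 level of each of the 49 genes in each SPM sample relative to the mean of the 4 WT samples, with genes grouped by role and a colour scale from blue (below the WT mean) to red (above it) that saturates at the ends of its range. The columns of ACKR2-/- samples 1 and 4 are red for most genes (medians 0.80 and 1.41), and those of samples 2 and 3 are pale (medians -0.21 and 0.08).

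Some marker genes of other cells moved with these 2 samples. The summed level of 9 markers of large peritoneal macrophages, a resident population of the same cavity, was 1203 and 1432 CPM in ACKR2-/- samples 1 and 4 and 291 to 669.5 CPM in the other 6 samples, with 8 of the 9 higher in ACKR2-/- cells. The adhesion molecule Icam2 (97.6, 242, 338 and 271 CPM in WT and 764, 293, 266 and 811 CPM in ACKR2-/- samples) and the proteoglycan Prg4 (131, 159.6, 116 and 186 CPM in WT and 264, 170.2, 121 and 367 CPM in ACKR2-/- samples) accounted for most of that sum. The defining transcription factor Gata6 was low, at 2.49, 0.929, 2.11 and 2.44 CPM in WT and 2.84, 1.76, 1.7 and 3.72 CPM in ACKR2-/- samples, and the phosphatidylserine receptor Timd4 had 29.2, 121, 177 and 155 CPM in WT and 126, 137, 137 and 185 CPM in ACKR2-/- samples. Sample 4 was highest for both, and sample 1 lay within the range of the other samples for Timd4. The 8 NK cell markers summed to 47.8 and 89.0 CPM in these samples, and to 8.63 to 25.8 CPM in the others. Ly6c2, a marker of classical monocytes that is itself known to respond to interferon, had 16.8, 56.6, 44.5 and 51.2 CPM in WT and 380.3, 32.3, 23.9 and 707 CPM in ACKR2-/- samples. The list of 10 monocyte markers that holds Ly6c2 did not move with samples 1 and 4. It summed to 101778, 113739, 75486 and 88866 CPM in ACKR2-/- samples 1 to 4 and to 70462 to 121693 CPM in WT samples. Of the 9 tested, 4 had a higher and 5 a lower estimate. The part of these cells in the result was not tested. The 9 SPM markers, none of which was at 0, summed to 136931, 162648, 112937 and 110344 CPM in ACKR2-/- samples 1 to 4 and to 174684 to 189413 CPM in WT samples.

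In monocytes the direction was opposite, and again no interferon stimulated gene passed the test. Of the 48 genes tested, 38 had a lower and 10 a higher estimate in ACKR2-/- monocytes. The median log2 fold change was -0.26, compared with 0.004 over all 13246 genes. The smallest adjusted p of a member was 0.130, for Ifit2 (edgeR's quasi-likelihood test and Benjamini-Hochberg adjustment), and DESeq2 also called 0 of these genes, whereas 1.27% of all genes were called by edgeR and 2.21% by DESeq2. At an unadjusted p below 0.05, 5 of the 48 were lower and 0 higher, compared with 8.17% of all genes lower and 8.83% higher. The share of members that were lower was thus close to that of all genes, and the share that were higher was below it.

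Ifit2 had 30.4, 17.4, 23.3 and 21.0 CPM in WT and 14.8, 13.1, 18.6 and 13.8 CPM in ACKR2-/- samples. ACKR2-/- samples 1, 2 and 4 were below every WT sample, and sample 3 was above WT sample 2 alone. Its log2 fold change was -0.61 (SE 0.18, unadjusted p = 0.00569 in edgeR's quasi-likelihood test). Gbp5, a guanylate-binding protein that promotes inflammasome activation, had 4.10, 2.36, 2.45 and 2.41 CPM in WT and 1.13, 1.48, 1.63 and 1.7 CPM in ACKR2-/- samples. It was low, and it was the only one of the 48 genes in which the genotypes did not overlap (5.25% of all genes were lower without overlap). Its log2 fold change was -0.92 (SE 0.29), and the exact permutation test (two-sided) gave p = 0.029, the smallest possible here. Ddx58, the RNA sensor RIG-I, had 22.1, 16.9, 20.1 and 17.6 CPM in WT and 15.01, 12.4, 17.1 and 14.7 CPM in ACKR2-/- samples. Slfn8 had 2.15, 1.55, 0.668 and 2.29 CPM in WT and 0.538, 0.626, 0.368 and 1.43 CPM in ACKR2-/- samples, and Rsad2, which encodes the antiviral enzyme viperin, had 40.4, 22.6, 30.5 and 34.3 CPM in WT and 10.3, 17.2, 30.8 and 24.4 CPM in ACKR2-/- samples. The samples of the genotypes overlapped for these 3 genes, with log2 fold changes of -0.37 (SE 0.14), -1.16 (SE 0.49) and -0.63 (SE 0.28). Exact permutation tests (two-sided) gave p = 0.057 for Ifit2, 0.057 for Ddx58, 0.057 for Slfn8 and 0.143 for Rsad2.

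By role, all 6 oligoadenylate synthetase genes and all 4 IFIT genes had a lower estimate in ACKR2-/- monocytes, with medians of -0.32 and -0.39 on the log2 scale. So did 5 of 6 sensors (median -0.32), 6 of 8 GTPases (-0.26) and 9 of the 11 further genes (-0.26). The antiviral effectors (4 of 6 lower, median -0.07), the ISG15 system (2 of 3 lower, median -0.02) and the transcription factors (2 of 4 lower, median -0.02) lay near 0. Zbp1 had 96.2, 78.6, 102 and 104 CPM in WT and 43.8, 64.4, 114 and 81.5 CPM in ACKR2-/- samples, Oas1a had 163, 144, 170.3 and 188 CPM in WT and 76.6, 94.3, 193 and 176 CPM in ACKR2-/- samples, and Ifit3 had 90.5, 42.8, 73.8 and 80.9 CPM in WT and 25.6, 37.5, 89.3 and 62.4 CPM in ACKR2-/- samples. In each of them ACKR2-/- samples 1 and 2 were below every WT sample, and samples 3 and 4 were not. Isg15 had 47.7, 36.1, 45.6 and 46.7 CPM in WT and 25.2, 30.9, 43.5 and 41.0 CPM in ACKR2-/- samples, with the same split, and Irf1 had 103, 77.9, 98.1 and 82.0 CPM in WT and 82.9, 62.8, 87.8 and 91.0 CPM in ACKR2-/- samples. Bst2 had 147, 129.5, 167 and 167 CPM in WT and 128, 154, 157 and 176 CPM in ACKR2-/- samples, and Ifi27l2a had 983, 805, 1112 and 1069 CPM in WT and 689, 729.8, 1192 and 1339 CPM in ACKR2-/- samples. For these last 2 genes the log2 fold changes were 0.01 (SE 0.13) and -0.01 (SE 0.22). Ifi47 was low, at 2.28, 1.93, 1.72 and 2.41 CPM in WT and 1.13, 0.683, 2.16 and 3.08 CPM in ACKR2-/- samples, where 3 counts correspond to 0.156 to 0.194 CPM.

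The genes with the smallest p among those with a higher estimate were Parp14, Stat2, Tgtp1, Mx1 and Ifi35. Stat2, a partner of IRF9, had 36.4, 26.9, 40.4 and 30.04 CPM in WT and 44.7, 28.7, 34.8 and 51.8 CPM in ACKR2-/- samples. Mx1, a dynamin-like antiviral GTPase, had 30.3, 23.0, 39.2 and 30.1 CPM in WT and 31.7, 20.5, 41.6 and 47.5 CPM in ACKR2-/- samples. Samples of both genotypes overlapped for Stat2 and Mx1. Parp14 had 28.2, 22.6, 34.5 and 31.3 CPM in WT and 30.8, 32.6, 34.5 and 42.3 CPM in ACKR2-/- samples, Tgtp1 had 3.13, 1.43, 1.502 and 1.85 CPM in WT and 4.79, 1.59, 2.26 and 2.12 CPM in ACKR2-/- samples, and Ifi35, which binds N-myc interactor, had 114, 107, 123 and 123 CPM in WT and 97.3, 120.2, 153 and 133 CPM in ACKR2-/- samples. The log2 fold changes of the 5 genes were 0.27 (SE 0.15), 0.26 (SE 0.19), 0.45 (SE 0.39), 0.20 (SE 0.24) and 0.11 (SE 0.14). The smallest unadjusted p among them was 0.107, for Parp14 (edgeR's quasi-likelihood test).

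ACKR2-/- monocyte samples 1 and 2 carried the lower estimates. The median log2 level of the 48 genes relative to the WT mean was -0.49, -0.72, 0.17 and 0.03 in ACKR2-/- samples 1 to 4. In WT samples 1 to 4 it was 0.12, -0.32, 0.11 and 0.09. WT sample 2 was the lowest WT sample for 45 of the 48 genes, compared with 27% of all genes. ACKR2-/- samples 1 and 2 were below every WT sample for 33 and 38 genes, compared with 35.2% and 32.2% of all genes. Samples 3 and 4 were so for 3 and 7 genes, compared with 26% and 28.7% of all genes. The same 2 libraries had the lowest summed level of 10 monocyte markers, at 28894 and 44378 CPM against 56716 to 73022 CPM in the other 6, and the 10 T cell markers summed to 67.3 to 125 CPM over the ACKR2-/- samples and to 3.67 to 5.53 CPM over the WT samples. The 9 markers of plasmacytoid dendritic cells, which are themselves known for making type I interferon, summed to 361, 198, 226 and 220.4 CPM in ACKR2-/- samples 1 to 4 and to 158 to 174 CPM in the WT samples, with 8 of the 9 higher. The 10 neutrophil markers all had a lower estimate and summed to 72964, 76322, 20310 and 28340 CPM in ACKR2-/- samples 1 to 4, lowest in samples 3 and 4, and to 51502 to 115483 CPM in the WT samples. The part of these cells in the result was not tested. Without ACKR2-/- samples 1 and 2, an alternative chosen after the values had been seen, 33 of the same genes had a higher and 15 a lower estimate, the median was 0.07, and 0 genes were called, with 7 higher and 2 lower at an unadjusted p below 0.05 (edgeR's quasi-likelihood test), compared with 9.08% and 11.9% of all genes. The samples left out were the lowest for these genes, so the direction of the move was fixed by the choice. Ifit2 and Gbp5 kept a lower estimate, at -0.51 and -0.76.

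**Figure D4:**
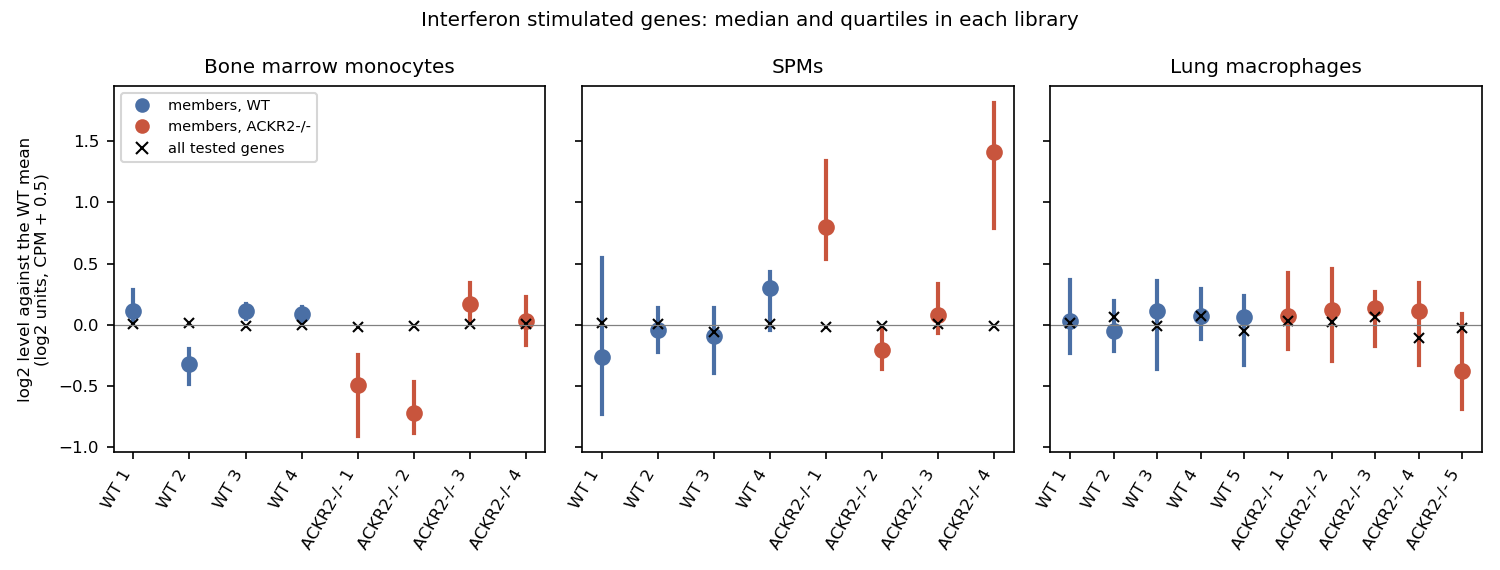
Median log2 level, from CPM with 0.5 added, of the interferon stimulated genes in each library (WT blue, ACKR2-/- red) relative to the WT mean of its cell type, with lines from the lower to the upper quartile over the genes and a cross at the median of all tested genes, for monocytes (48 genes), SPMs and lung macrophages (49 genes each). SPM ACKR2-/- libraries 1 and 4 lie highest (0.80 and 1.41), monocyte ACKR2-/- libraries 1 and 2 lie lowest (-0.49 and -0.72), and the lung libraries stay near 0 except ACKR2-/- library 5 (-0.37).

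In MHCII negative lung macrophages the estimates were divided between both directions. A higher estimate was seen for 27 and a lower one for 22 of the 49, with a median log2 fold change of 0.01 compared with -0.04 over all 16824 genes. None was called by edgeR's quasi-likelihood test and Benjamini-Hochberg adjustment (smallest adjusted p of a member 0.9999), none by DESeq2, and none had an unadjusted p below 0.05. Over all genes 0% were called by edgeR, 0.0605% by DESeq2, and 2.97% had an unadjusted p below 0.05. In none of the 49 were the genotypes free of overlap (0.446% of all genes).

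Values in the lung are those of 5 samples labelled WT and 5 ACKR2-/- samples. Rsad2 had 11.6, 11.3, 13.4, 11.4 and 12.4 CPM in WT and 14.7, 15.7, 9.84, 16.9 and 20.3 CPM in ACKR2-/- samples, Oas3 had 6.28, 8.43, 4.24, 12.1 and 16.1 CPM in WT and 9.23, 11.9, 9.80, 20.6 and 20.8 CPM in ACKR2-/- samples, and Zbp1 had 92.3, 82.7, 45.1, 110.5 and 157 CPM in WT and 116, 131, 109, 199 and 115 CPM in ACKR2-/- samples. ACKR2-/- sample 4 was the highest of all for Zbp1, and samples 4 and 5 for Rsad2 and Oas3. Ifi35 had 107, 115, 106, 119 and 119.5 CPM in WT and 102, 127, 142, 128 and 136 CPM in ACKR2-/- samples, and Ifi47 had 77.2, 52.4, 41.2, 48.9 and 34.4 CPM in WT and 99.0, 97.5, 56.6, 35.9 and 38.2 CPM in ACKR2-/- samples. These 5 genes had the smallest p among those with a higher estimate, with log2 fold changes of 0.37 (SE 0.21), 0.62 (SE 0.39), 0.46 (SE 0.30), 0.16 (SE 0.13) and 0.37 (SE 0.33). In exact permutation tests (two-sided), where 5 samples against 5 can reach 0.008, Rsad2 had p = 0.087 and Ifi35 p = 0.103.

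On the lower side, Slfn8 had 11.3, 10.9, 18.7, 15.1 and 23.7 CPM in WT and 7.29, 10.7, 14.5, 15.05 and 10.1 CPM in ACKR2-/- samples, Ifit2 had 3.45, 3.57, 9.97, 2.35 and 2.67 CPM in WT and 3.02, 2.28, 3.05, 4.35 and 1.701 CPM in ACKR2-/- samples, and Oas2 had 6.42, 9.28, 12.5, 29.3 and 21.6 CPM in WT and 5.09, 5.89, 19.8, 11.5 and 12.97 CPM in ACKR2-/- samples. The Ifit2 estimate rested on WT sample 3 (-0.03 without it), and the genotypes overlapped for all 3 genes. Oasl2, an oligoadenylate synthetase-like protein, had 37.4, 34.5, 46.6, 49.7 and 45.4 CPM in WT and 34.3, 26.8, 47.5, 50.1 and 21.4 CPM in ACKR2-/- samples, and Ifih1 had 17.0, 17.4, 16.6, 20.6 and 21.3 CPM in WT and 12.4, 13.02, 21.1, 18.7 and 15.8 CPM in ACKR2-/- samples. The log2 fold changes were -0.47 (SE 0.28), -0.61 (SE 0.45), -0.52 (SE 0.47), -0.25 (SE 0.24) and -0.20 (SE 0.19). Among the abundant members, Irf1 had 641, 614, 255, 584 and 479 CPM in WT and 752, 579, 571, 467 and 304 CPM in ACKR2-/- samples, Ifi27l2a had 218, 171, 296, 179 and 206 CPM in WT and 123, 243, 156, 266 and 422 CPM in ACKR2-/- samples, and Bst2 had 135, 109, 172, 77.9 and 95.1 CPM in WT and 138, 162, 90.1, 104 and 193 CPM in ACKR2-/- samples. WT sample 3 was lowest for Irf1, and ACKR2-/- sample 5 was highest for Ifi27l2a and Bst2. Oas1a had 68.8, 56.5, 89.5, 58.8 and 79.5 CPM in WT and 62.9, 70.2, 58.5, 112 and 77.5 CPM in ACKR2-/- samples, Ifit3 had 39.0, 28.9, 33.4, 28.3 and 12.9 CPM in WT and 42.9, 37.6, 22.9, 18.5 and 8.72 CPM in ACKR2-/- samples, and Isg15 had 26.8, 16.3, 33.1, 19.0 and 19.7 CPM in WT and 26.7, 23.3, 19.7, 12.4 and 30.7 CPM in ACKR2-/- samples. The 95% confidence intervals of the log2 fold change of these 6 genes all included 0 and were -0.57 to 0.68 for Irf1, -0.50 to 0.85 for Ifi27l2a, -0.35 to 0.79 for Bst2, -0.35 to 0.56 for Oas1a, -1.01 to 0.76 for Ifit3 and -0.62 to 0.56 for Isg15. The library labelled WT 3 had 85455 CPM of the 9 SPM markers, which include the MHCII genes H2-Ab1, H2-Aa and Cd74, against at most 9004 CPM in the other lung samples. Leaving out the libraries labelled WT 3 and WT 5, an alternative chosen after the values had been seen, gave 27 higher and 22 lower estimates and a median of 0.03. The sum of 8 NK cell markers was 1715, 1988, 813, 323 and 616 CPM in ACKR2-/- samples 1 to 5 and 160 to 373 CPM in the WT samples. In the same samples, relative to the WT mean on the log2 scale, the median level was 0.07, 0.12, 0.13, 0.11 and -0.37 over the 49 genes, 0.75, 0.56, 0.06, -0.32 and -0.76 over the 9 GTPases, and 0.74, 0.40, -0.25, -0.51 and -1.04 over the 4 IFIT genes. Among the ACKR2-/- samples, samples 1 and 2 were highest in the NK cell markers and for the GTPases and IFIT genes. They were also the highest of these samples in epithelial (19052 and 12834 CPM), endothelial (1024 and 936 CPM) and fibroblast (828 and 880 CPM) markers. In WT samples 1 to 5 the medians were 0.47, 0.10, -0.25, -0.23 and -0.40 over the GTPases. Over the IFIT genes they were 0.47, 0.22, 0.42, 0.07 and -1.16. The part of any of these cells in the values was not tested.

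**Figure D5:**
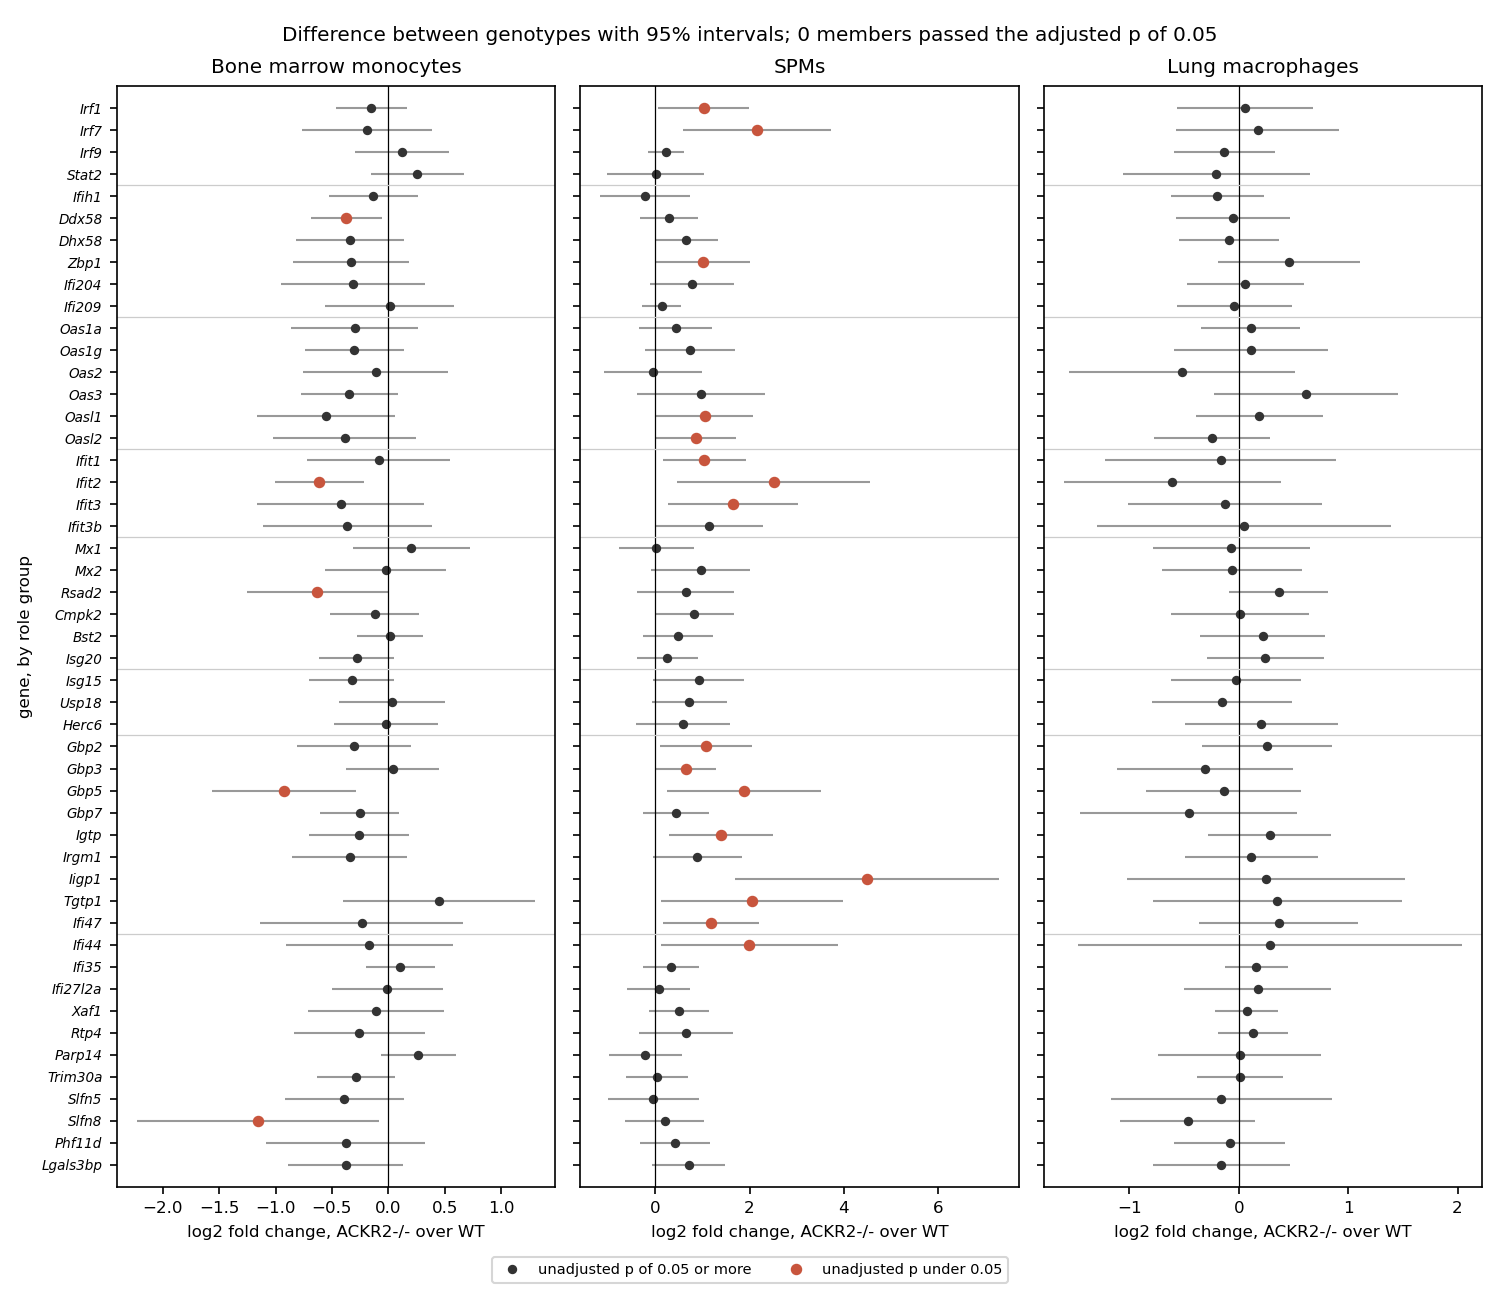
Log2 fold change of ACKR2-/- over WT for each interferon stimulated gene in a panel per cell type (each with its own horizontal scale), with 95% confidence intervals as lines, genes in order of role group, and larger red points at an unadjusted p under 0.05 in edgeR's quasi-likelihood test. SPM estimates lie mostly above 0 (median 0.71, 16 red points), monocyte estimates mostly below 0 (median -0.26, 5 red points) and lung estimates around 0 (median 0.01, no red point).

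Whether the effect of the genotype differed between cell types was tested in the fit of all 26 samples. Between monocytes and SPMs 0 of 49 genes passed an adjusted p below 0.05 (edgeR's quasi-likelihood test and Benjamini-Hochberg adjustment), against 0.253% of all genes, and 23 had an unadjusted p below 0.05, against 7.46% of all genes. DESeq2 called 1, Gbp5. The effect in monocytes minus that in SPMs was -2.91 (SE 0.78, 95% confidence interval -4.50 to -1.31, adjusted p = 0.166 in edgeR's test) for Gbp5, -3.20 (SE 0.94) for Ifit2 and -2.41 (SE 0.78) for Irf7, on the log2 scale. The 23 genes included 6 GTPases and 4 sensors. Between SPMs and lung macrophages 0 genes passed (0.0393% of all genes), none with DESeq2, and 11 had an unadjusted p below 0.05 (6.15% of all genes). Here the effect in SPMs minus that in lung macrophages was 3.14 (SE 0.90, adjusted p = 0.557 in edgeR's quasi-likelihood test) for Ifit2 and 4.24 (SE 1.35) for Iigp1. Between monocytes and lung macrophages 0 passed in edgeR or in DESeq2 (0.152% of all genes in edgeR), and 0 had an unadjusted p below 0.05, against 6.07% of all genes. The smallest p was that of Rsad2, at 0.0530 (edgeR's quasi-likelihood test), for a difference of -1.02 (SE 0.50). The 3 contrasts share samples pairwise, and both contrasts with SPMs include libraries 1 and 4 of the ACKR2-/- group.

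Other genes of the interferon pathway were taken from a list of 54, made up of 21 interferon genes, 6 receptor subunits, 5 signal transducers, 15 inducers of interferon and 7 brakes on the response. None passed an adjusted p below 0.05 in any cell type (edgeR's quasi-likelihood test and Benjamini-Hochberg adjustment), of 31, 30 and 33 tested in monocytes, SPMs and lung macrophages. In SPMs 19 had a higher and 11 a lower estimate, with 3 higher and 0 lower at an unadjusted p below 0.05, compared with 2.93% and 2.52% of all genes. Irf8, a transcription factor of the myeloid lineage that is itself inducible by interferon gamma, had 7.09, 8.11, 6.24 and 11.2 CPM in WT and 39.7, 11.4, 11.2 and 47.2 CPM in ACKR2-/- samples. Samples 1 and 4 of the ACKR2-/- group were highest, samples 2 and 3 were just above the highest WT sample, and the log2 fold change was 1.74 (SE 0.47, edgeR's unadjusted p = 0.00378). Socs1, which inhibits JAK kinases, had 1.82, 3.41, 1.67 and 4.29 CPM in WT and 8.43, 3.89, 3.37 and 6.44 CPM in ACKR2-/- samples. Socs3, an inhibitor of cytokine receptors of the gp130 family, had 3.498, 2.43, 1.67 and 2.55 CPM in WT and 7.13, 3.996, 3.40 and 9.10 CPM in ACKR2-/- samples. Their log2 fold changes were 0.96 (SE 0.40) and 1.21 (SE 0.37), with the same ACKR2-/- samples highest.

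Interferon transcripts themselves were scarce in SPMs and monocytes. In SPMs Ifng, the gene of interferon gamma, was below the filter, with 12 reads over the WT and 87 over the ACKR2-/- samples (0, 0.258, 0.0880 and 0.222 CPM in WT and 0.958, 0.293, 0.361 and 1.08 CPM in ACKR2-/- samples). The ACKR2-/- samples with most reads were again 1 and 4. Ifnb1 had 0 and 2 reads there, and Ifnk and Ifnz had 11 and 3 reads over the WT and 10 and 10 over the ACKR2-/- samples. In monocytes Ifng had 0 reads over the WT samples, where 3 counts correspond to up to 0.194 CPM in a sample, and 15 over the ACKR2-/- samples. The other interferon genes with reads in monocytes, namely Ifna1, Ifna2, Ifna4, Ifnb1, Ifnk and Ifnz, had at most 17 reads per genotype, and none of them was tested. In lung macrophages Ifng reached the filter, with 8.26, 3.57, 3.93, 13.4 and 5.39 CPM in WT and 39.3, 43.5, 25.2, 6.36 and 11.5 CPM in ACKR2-/- samples. ACKR2-/- samples 1 to 3 were highest, and they were also highest in the NK cell markers given above, whose part in it was not tested (log2 fold change 1.87, SE 0.55, unadjusted p = 0.00546 and adjusted p = 1.000 in edgeR's quasi-likelihood test). Ifnb1, of the type I interferons, had 6.33, 2.63, 51.6, 1.18 and 0.101 CPM in WT and 1.41, 1.81, 0.602, 0 and 0.0532 CPM in ACKR2-/- samples, and WT sample 3 alone stood out. Its log2 fold change was -3.96 (SE 1.46, unadjusted p = 0.0196 in the same test). Irf8 had 215, 183, 315, 255 and 271 CPM in WT and 587, 490.0, 385, 272 and 266 CPM in ACKR2-/- samples in the lung, with a log2 estimate of 0.69 (SE 0.25). Of Ifna1, Ifnk and Ifnl3 there were at most 13 reads per genotype in the lung.

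In monocytes 7 of the pathway genes tested had a higher and 24 a lower estimate, with 1 higher and 4 lower at an unadjusted p below 0.05, compared with 8.83% and 8.17% of all genes. Stat3 had 135, 132, 129.9 and 109 CPM in WT and 96.4, 82.3, 98.9 and 98.4 CPM in ACKR2-/- samples, and Jak1, the kinase bound by receptors of both interferon types, had 117, 100.1, 100.9 and 98.6 CPM in WT and 65.2, 82.9, 98.3 and 78.8 CPM in ACKR2-/- samples. For Stat3 and Jak1 all ACKR2-/- samples were below all WT samples, with log2 fold changes of -0.43 (SE 0.12) and -0.36 (SE 0.13). Adar, which edits double-stranded RNA and so limits its sensing, had 27.4, 26.2, 26.4 and 27.1 CPM in WT and 15.5, 15.1, 24.6 and 23.7 CPM in ACKR2-/- samples, and Ticam1, the TRIF adaptor of TLR3, had 10.7, 7.59, 8.35 and 7.83 CPM in WT and 4.14, 5.24, 7.16 and 7.49 CPM in ACKR2-/- samples. Both were again lower without overlap, as were 5.25% of all genes, with log2 fold changes of -0.44 (SE 0.17) and -0.52 (SE 0.22). Trim24, a repressor of the response, had 4.49, 3.17, 3.78 and 3.64 CPM in WT and 7.48, 5.58, 4.31 and 6.27 CPM in ACKR2-/- samples, with a log2 fold change of 0.65 (SE 0.22). Irf8 was higher without overlap (4.94% of all genes were), at 404, 416, 424 and 383 CPM in WT and 435, 438, 589 and 527 CPM in ACKR2-/- samples, with a log2 estimate of 0.29 (SE 0.14, unadjusted p = 0.0542 in edgeR's test). None of the 5 genes before Irf8 passed after adjustment, with adjusted p-values from 0.102 to 0.263 (edgeR's quasi-likelihood test and Benjamini-Hochberg adjustment). The receptor subunits Ifnar1, Ifnar2 and Ifngr1 were expressed in all 3 cell types, with log2 fold changes of 0.09, -0.06 and -0.28 in monocytes, -0.05, 0.18 and 0.22 in SPMs and -0.32, -0.02 and 0.28 in lung macrophages.

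Several genes of the list overlap or resemble other genes, which limits what their counts measure. On the annotation, 19 of the 49 overlap another gene. These include Irf7 (GRCm38 chr7:141262706-141266481, minus strand), Irf1 (chr11:53770014-53778374, plus strand), Igtp (chr11:58199556-58207591, plus strand), Ifi47 (chr11:49076587-49096974, plus strand), Tgtp1 and Rtp4. Ifit2 (chr19:34550694-34576419, plus strand), Gbp5 (chr3:142493978-142522344, plus strand) and Isg15 (chr4:156199424-156200818, minus strand) do not overlap another gene. The sources used here do not say whether strand was used in counting, so reads from overlapping genes on opposite strands could not be told apart.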

How the data were processed

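Deposited tables of raw counts per gene, made by the authors for each cell type, were the starting point. The labels' processing notes name HISAT2 2.0.5, featureCounts 1.5.0-p3, DESeq2 and build mm10. Poly-A RNA had been amplified with a SMARTer kit and sequenced as paired ends, without molecular identifiers. The SEs and confidence intervals given come from edgeR's quasi-likelihood test and include the spread between samples. The lung table carries 5 summary lines in the style of another counting tool (56.3% of its counts), which were left out. Gene lengths deposited with the monocyte and SPM counts served for FPKM in all cell types, the lung included.

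In R 4.3.3, edgeR 4.0.16 was used with filterByExpr (minimum count 10, minimum total 15), TMM and the quasi-likelihood test within each cell type. P-values were adjusted over all tested genes by the Benjamini-Hochberg method, and calls needed an adjusted p under 0.05 together with a log2 change beyond 0.5 in either direction. A fit of all 26 samples on 17792 genes gave the WT comparisons and the differences of effects. Exact permutation tests, two-sided, used CPM. DESeq2 1.42.0 was an alternative, as were RLE factors, library totals, no filter, a filter at 1 CPM, a robust fit, a replicate block and leaving out each sample. On simulated data for the genotype comparisons, edgeR recovered 64% of 2-fold and 91% of 4-fold changes in monocytes, 13% and 70% in SPMs and 2% and 51% in lung macrophages.

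The members and lists were chosen with earlier results of these data known. Values per sample are given for the 5 members with the smallest p in each direction per genotype comparison and for the highest member by FPKM in each role group. In WT comparisons the 3 called members with the largest change in each direction are named, and further names were chosen after their values were seen. Pathway genes are named at an unadjusted p under 0.05, or as ligands with reads; the receptor subunits and Irf8 in monocytes were added after their values were seen. A gene of the pathway list that enters its counts is not reported here by name. Motifs were searched on both strands of RefSeq promoter windows, and overlapping matches were counted. No replicates agreed within sampling noise (the lowest chi-square over its degrees of freedom was 11.6). Nothing in the sources used here says that lung samples came from separate mice, and p-values measure the spread between samples. All columns of the tables were assigned to samples.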

Additional observations from a re-analysis of the deposited data

Results flagged for a closer look

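Of 100 groups of 4 or 5 samples examined for a sample far from the others (Dixon's test at the 95% level), 7 held such a sample, and chance alone would flag about 1 in 20 groups. Library WT 1 of the SPMs was the high sample of 3 genes, at 39.2 CPM for Parp14, 12.4 CPM for Ifih1 and 13.3 CPM for Oas2. Library WT 4 of the SPMs stood at 4.21 CPM for Iigp1. In monocytes WT sample 1 had 4.10 CPM for Gbp5. In lung macrophages the library labelled WT 3 had 9.97 CPM for Ifit2, and ACKR2-/- sample 4 had 199.2 CPM for Zbp1.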

How the results depend on the processing

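No interferon stimulated gene was called for genotype under any setting run, except that without a filter on low counts 1 (Iigp1, log2 fold change 4.52) was called in SPMs. The counts over all genes moved more, from 168 in monocytes to 346 without a filter, 540 with DESeq2 and 843 without ACKR2-/- samples 1 and 2 (76 to 413 when 1 sample was left out), from 6 in SPMs to 52 without a filter and 30 with DESeq2 (3 to 8), and from 0 in lung macrophages to 18 with DESeq2. The median log2 fold change of the genes became 0.074 in monocytes without ACKR2-/- samples 1 and 2 and -0.0998 in SPMs without ACKR2-/- samples 1 and 4. The samples left out were the lowest for these genes in monocytes and the highest in SPMs, so the direction of this move was fixed by the choice. Leaving out 1 sample kept it between -0.417 and -0.118 in monocytes, between 0.377 (without ACKR2-/- sample 4) and 0.877 in SPMs, and between -0.037 and 0.080 in lung macrophages. For the difference between monocytes and SPMs 1 gene, Gbp5, was called with DESeq2, and leaving out 1 sample gave 0 to 1 (1 without ACKR2-/- sample 2 of SPMs). WT calls ranged over 24 to 31, 20 to 24 and 21 to 29 genes when 1 sample was left out. In SPMs Ifit2 reversed without ACKR2-/- samples 1 and 4 (-0.405), Oas2 without a filter (0.0218), with the replicate block (0.188) and within -0.255 to 0.725 when 1 sample was left out, and Slfn5 without a filter (0.0210) and within -0.349 to 0.444. Ifih1 and Parp14 reversed without WT sample 1 (ranges -0.508 to 0.315 and -0.374 to 0.276). Of the other values of named genes, 500 kept direction and call. The cause of these moves was not tested. The replicate numbers did not pair the samples (correlations of same-numbered samples from -0.132 to 0.675), and with the replicate block 0 genes of the list were called for genotype, with medians of -0.301, 0.626 and 0.0071, while WT calls were 31, 28 and 23. Spread between samples limits what was detectable, most of all in lung macrophages.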
